A study of Mus musculus with 2 samples.

Results

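Cyclic nucleotide phosphodiesterases are the enzymes that end a cAMP or cGMP signal by hydrolysing the second messenger to AMP or GMP. The 8 genes described here, Pde2a, Pde3b, Pde4a, Pde4b, Pde4d, Pde7a, Pde7b and Pde8a, were taken by name, and every probe set that the array's annotation gives to exactly 1 of them was kept. This gave 25 probe sets among the 34958 of the array that carry a single gene name, which together read 18194 genes. Each probe set is given on its own, because different ones can read different isoforms of a gene.

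Mouse bone marrow-derived macrophages (BMDMs) were kept for 1 hr either with the supernatant of apoptotic W3 cells or with medium, and their RNA was hybridized to an Affymetrix GeneChip of the mouse genome, 1 array for each condition. Both cultures came from female C57BL/6J mice aged 8 weeks and had been grown with M-CSF for over 7 days. The W3 cells, a mouse T cell line carrying Fas, had received human Fas ligand for 30 min and were then kept for 60 min in RPMI with 1% FCS before their supernatant was taken, whereas the labels describe the control medium as RPMI with 10% FCS. The labels and the design text thus give different serum contents for the supernatant and the medium. Whether the cultures differed in serum is not settled by them, and an effect of serum cannot be told apart from that of the supernatant. The supernatant of living W3 cells was not put on an array. No condition was replicated, so no difference below has a p-value, an error or a replicate check, and the precision is limited by there being 2 arrays.

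The values are MAS5 signals, which are linear intensities. A signal was taken as dim when it lay under a floor of 38.4, which was set from 80 probe sets of olfactory and vomeronasal receptors, and dim signals were raised to the floor before ratios were formed. A probe set is called measured if it exceeds the floor on 1 array or more, a ratio in which 1 of the signals is dim is a lower bound written "at least", and a difference counts as called from 2-fold. All macrophage markers listed (8 of 8) were above the floor, with signals of 1050 to 31345 with the supernatant and 471 to 32154 with medium, and Mertk, a receptor for the engulfment of apoptotic cells, was 2.23-fold higher. Of 10 T cell markers, 7 were under the floor on both arrays, among them Cd3d, Cd3e, Cd3g and Thy1. The 3 measured were all lower with the supernatant. Cd28 read 283 with the supernatant and 393 with medium, Cd5 42.8 and 65.9, and Cd8a 20.7 (dim) and 72.9. The summed signal of the T cell list, most of it from Cd28, was 384 with the supernatant and 612 with medium. Of 6 neutrophil markers 4 were measured, with a median log2 ratio of 0.43 and a summed signal of 660 with the supernatant and 439 with medium. S100a8 read 462 and 391, and S100a9 read 73.0 with the supernatant and 5.85 with medium, at least 1.90-fold higher. Mpo and Camp were under the floor. None of these T cell and neutrophil markers was called, and the part of either list in the results below was not tested. The ratio of the 3′ to the 5′ control probe set, a measure of RNA quality, was 1.21 and 1.16 for Actb with the supernatant and with medium, and 0.964 and 0.969 for Gapdh.

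In macrophages cAMP is made by adenylyl cyclases when a receptor coupled to the G protein Gs is occupied, as the A2 adenosine receptors are by adenosine, and it acts through protein kinase A (PKA), Epac proteins and the transcription factor CREB. Phosphodiesterases set how long and how far that signal reaches. The PDE4, PDE7 and PDE8 families are specific for cAMP, while PDE2A and PDE3B hydrolyse both nucleotides. Transcription of some PDE4 forms is itself known to be raised by cAMP, which makes these enzymes part of a negative feedback, and PDE4B is known from mouse knockouts as the PDE4 form needed for full TNFα production by macrophages exposed to endotoxin.

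Pde4b was the 1 gene of the 8 that was called. It was higher with the apoptotic cell supernatant on all 3 of its measured probe sets, by 2.22-fold to 4.27-fold, and no probe set of the other 7 genes reached 2-fold in either direction. Of the 25 probe sets 20 were measured, 19 of them above the floor on both arrays, and the remaining 5 (3 of Pde4b, 1 of Pde4d and 1 of Pde7b) were under the floor on both. The 3 called are 15.0% of the measured ones, against 0.974% of the 22172 measured probe sets of all genes that were at least 2-fold higher. None of the 20 was at least 2-fold lower, where 1.06% of all measured probe sets were. By the brightest probe set of each gene, 1 of 8 members was called higher, against 0.96% of 11977 measured genes, and none was called lower, against 0.843%. The median log2 ratio of the 20 probe sets was -0.03. As 3 of these 20 values belong to 1 gene and some probe sets were designed on the same sequence, they are not independent. The 8 genes were also chosen with earlier results of these data known, so the shares called are no independent result.

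**Figure D1:**
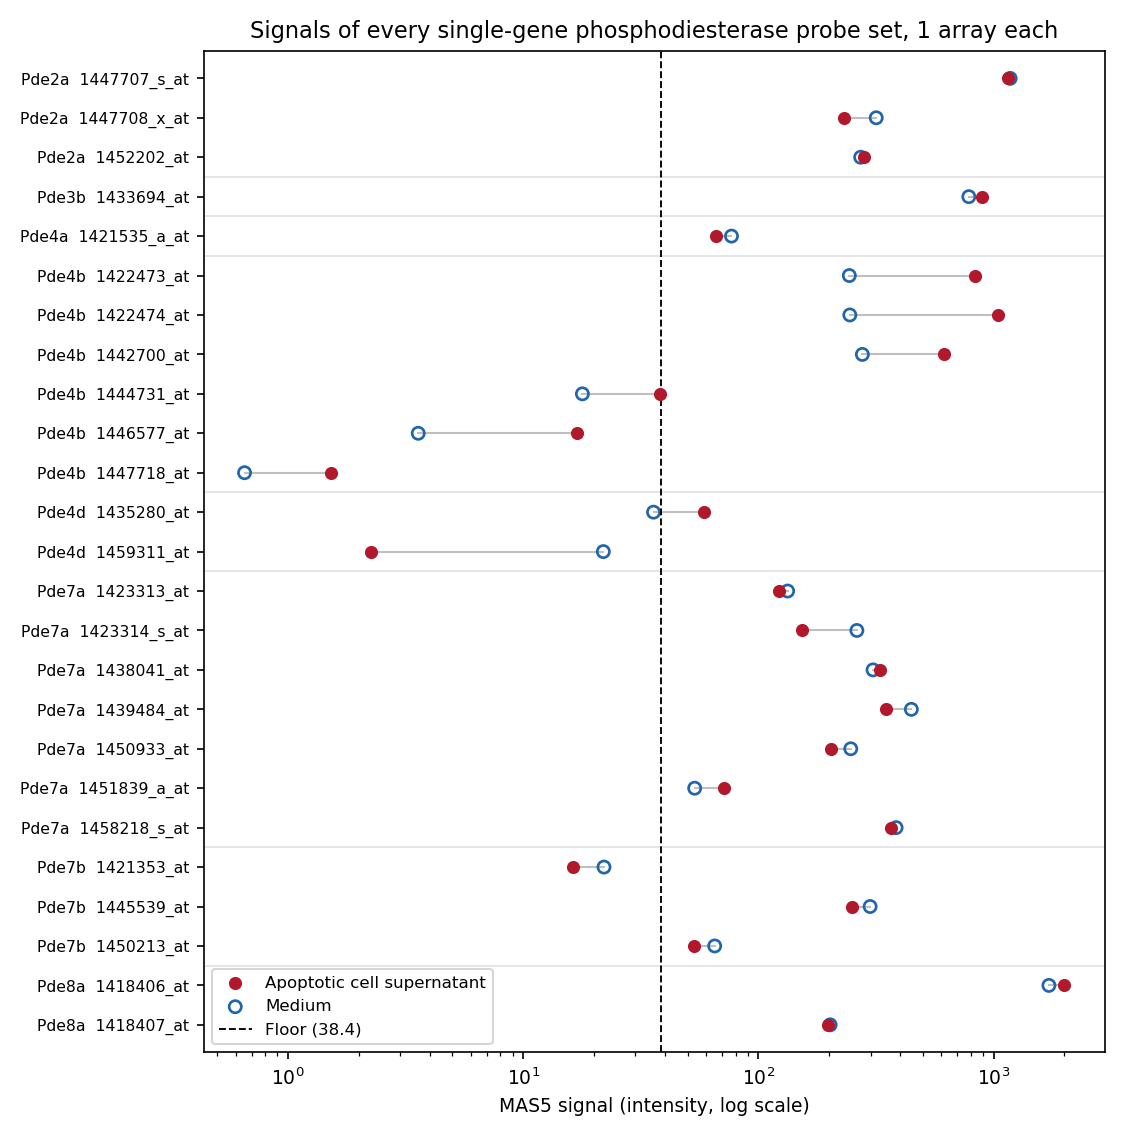
MAS5 signal (intensity, log axis) of each of the 25 probe sets with apoptotic cell supernatant (filled circles) and with medium (open circles), 1 array each. The dashed line marks the floor of 38.4. The 3 bright Pde4b probe sets lie at 613 to 1045 with the supernatant and at 244 to 277 with medium, while for most other probe sets right of the floor the circles nearly coincide.

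On its brightest probe set, 1422474_at, Pde4b had a signal of 1045 with the supernatant and 245 with medium, a log2 ratio of 2.09 or 4.27-fold. Probe set 1422473_at read 837 with the supernatant and 244 with medium (3.43-fold). These 2 were designed on the same source sequence, and their log2 ratios differed by 0.31. The third, 1442700_at, comes from another sequence and read 613 with the supernatant and 277 with medium (2.22-fold). All 3 were thus higher, by log2 ratios that spanned 0.95 between the lowest and the highest, with an SD of 0.48. For comparison, probe sets of the same gene scattered around their gene's mean with a pooled SD of 0.29 over the 5196 genes that have several above the floor, a figure that covers disagreement on these arrays and no error between cultures. Whether the lower value on 1442700_at goes with an isoform was not tested, because the annotation does not say which transcripts it reads.

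The other 3 probe sets of Pde4b were dim on both arrays and allow no fold. Probe set 1444731_at read 38.1 with the supernatant, just under the floor, and 17.8 with medium. Probe set 1446577_at read 16.9 with the supernatant and 3.58 with medium, and 1447718_at read 1.52 with the supernatant and 0.653 with medium. Each of these 3 pairs of signals lies where the receptor probe sets also lie, and no direction is read from them. In a bulk culture a higher signal cannot be divided into more mRNA per cell and more cells that hold it.

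Pde4b held rank 25 of the 11977 measured genes by log2 ratio on 1422474_at, the probe set where its ratio was highest. Its other measured probe sets had log2 ratios of 1.78 and 1.15 and would rank lower. The 4 genes above the floor on both arrays whose log2 ratio was nearest to that of 1422474_at were Cd83, B3gnt5, Kdm6b and Grasp, which lay within 0.037 of it. Cd83, a surface protein of activated antigen-presenting cells, read 3210 with the supernatant and 753 with medium (4.26-fold). Kdm6b, a demethylase of histone H3 lysine 27, read 606 and 139 (4.37-fold). B3gnt5, a glycosyltransferase, read 173 with the supernatant and 40.4 with medium (4.28-fold), the latter just above the floor. Grasp, a scaffold protein, read 715 and 163 (4.38-fold). Over 2 arrays this likeness is a single ratio and says nothing of a shared course in time.

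RefSeq (GRCm38.p6) gives Pde4b 6 curated transcripts and, in the table used here, 4 start regions on the plus strand of chromosome 4. The 100 bases before each start are shown because they are the candidate promoters of the gene that was called, and because the signals above do not tell which of them was in use. Capitals mark the letters TGACG or, as read on the other strand, CGTCA, the core of the cAMP response element (CRE), whose full form is TGACGTCA and holds both.
Pde4b start 1 (chr4:102421455-102421554): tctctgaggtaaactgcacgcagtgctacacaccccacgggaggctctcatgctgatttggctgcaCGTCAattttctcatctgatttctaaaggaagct
Pde4b start 2 (chr4:102569960-102570059): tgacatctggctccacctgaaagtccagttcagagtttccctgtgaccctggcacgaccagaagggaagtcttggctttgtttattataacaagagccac
Pde4b start 3 (chr4:102587458-102587557): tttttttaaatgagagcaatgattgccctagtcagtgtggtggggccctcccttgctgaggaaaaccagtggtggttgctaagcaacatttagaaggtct
Pde4b start 4 (chr4:102589743-102589842): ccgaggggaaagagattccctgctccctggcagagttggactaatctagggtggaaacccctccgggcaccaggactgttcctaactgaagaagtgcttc
The CRE core was found at start 1, beginning 34 bases before it, and in none of the other 3.

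The same search was made over 300 bases of every start region, 250 before the start and 50 after it. Of the 8 genes 6 had an entry (Pde2a, Pde4a, Pde4b, Pde4d, Pde7b and Pde8a), with 15 start regions in all. The full CRE was in none of the 15, against 1.79% of all 32851 start regions, and the core was in 4 of them (26.7%), against 20.8% of all. The other 3 are shown beside Pde4b since they belong to genes whose signals were not called.
Pde2a start 2 (chr7:101450522-101450550, plus strand): ggggcgcaggagCGTCAcggctgctgcaa
Pde4a start 2 (chr9:21184039-21184067, plus strand): ggcacagctcgaCGTCAggctggggagga
Pde8a start 1 (chr7:81213169-81213197, plus strand): gctgctttgcatTGACGccagcagccgct
These cores began 14 bases after the start in Pde2a, and 50 and 84 bases before it in Pde4a and Pde8a. A match of these letters was therefore present both in the gene that was called and in 3 that were not, and it is a description of sequence, not a binding site.

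The other PDE4 genes had low signals. Pde4a, a long-studied target of rolipram, is read by 1 probe set, 1421535_a_at, which was above the floor on both arrays with 66.2 with the supernatant and 76.8 with medium, a log2 ratio of -0.21. Pde4d, a form that in mice is tied to β-adrenergic signalling in the heart, had 1 probe set under the floor on both arrays (1459311_at, 2.25 with the supernatant and 21.9 with medium). Its other probe set, 1435280_at, passed only through the supernatant array, with 58.5 against 35.8 with medium, and was at least 1.52-fold higher. That 58.5 is above the highest receptor signal of its own array (44.7) but under that of the medium array (62.4), so it is close to what the receptor probe sets reach.

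The PDE7 genes encode cAMP-specific enzymes that rolipram does not inhibit. Pde7a, known for its expression in T cells, has 7 probe sets here, all above the floor on both arrays, whose log2 ratios ran from -0.78 to 0.41 with a median of -0.13. Of these 5 were below 0 and 2 above. The lowest was 1423314_s_at, with 153 with the supernatant and 262 with medium (1.71-fold lower), and the highest 1451839_a_at, with 71.4 and 53.6. The brightest, 1439484_at, read 348 with the supernatant and 447 with medium (1.28-fold lower). The 3 probe sets 1423313_at, 1423314_s_at and 1450933_at were designed on the same source sequence, yet their log2 ratios were -0.13, -0.78 and -0.28. The log2 ratios of the gene's 7 probe sets spanned 1.19, with an SD of 0.37 against 0.48 for the 3 of Pde4b. As the Pde7a ratios lay on both sides of 0, no direction is given for this gene.

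Pde7b had signals of 250 with the supernatant and 299 with medium on its brightest probe set, 1445539_at (log2 ratio -0.25). Another, 1450213_at, read 53.2 and 65.2 (log2 ratio -0.29), so that both measured probe sets were lower by similar amounts that were not called. The remaining one, 1421353_at, which shares its source sequence with 1450213_at, was under the floor with 16.2 with the supernatant and 22.0 with medium. Pde8a encodes an enzyme of very high affinity for cAMP that the general inhibitor IBMX does not block. It read 1989 with the supernatant and 1720 with medium on 1418406_at (log2 ratio 0.21), and 197 and 202 on 1418407_at (log2 ratio -0.03), so its 2 probe sets lay on either side of 0.

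The 2 genes whose enzymes hydrolyse both cAMP and cGMP were not called. PDE2A is stimulated by cGMP. Its brightest probe set, 1447707_s_at, read 1150 with the supernatant and 1177 with medium, and 1452202_at read 281 and 272. Probe set 1447708_x_at, whose suffix marks probes that may bind other transcripts, read 230 with the supernatant and 317 with medium (log2 ratio -0.46). PDE3B is inhibited by cGMP and is best known from insulin action in adipocytes. Its single probe set, 1433694_at, read 889 with the supernatant and 785 with medium, a log2 ratio of 0.18. Over the 7 genes other than Pde4b, the 17 measured probe sets had log2 ratios of -0.78 to 0.61 with a median of -0.07, and 11 of them lay within the pooled SD of 0.29 on either side of 0.

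**Figure D2:**
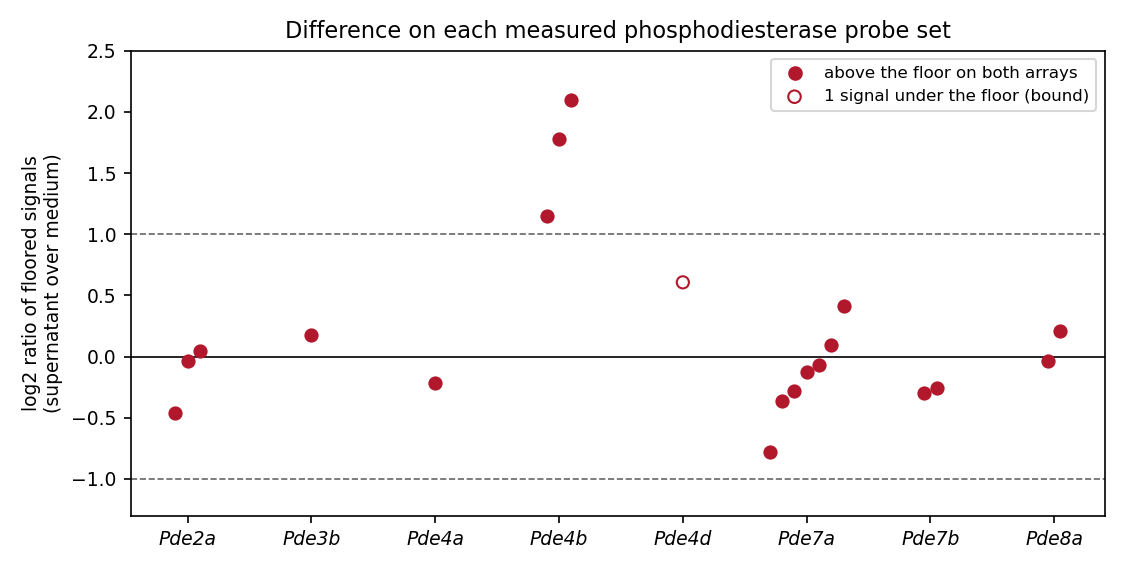
Log2 ratio (supernatant over medium, dim signals at the floor) of each of the 20 measured probe sets (points) by gene, with dashed lines at a 2-fold difference. The 3 Pde4b probe sets lie at 1.15 to 2.09 and all others between the dashed lines, Pde7a from -0.78 to 0.41, and the open point of Pde4d is a lower bound of 0.61.

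Of 16 other genes that carry the family name, 15 had a single-gene probe set and 5 were measured, by 7 of their 33 probe sets. None was at least 2-fold higher or lower after flooring, and the log2 ratios of the 7 ran from -0.41 to 0.05. Those of Pde10a and Pde6g each rest on a dim signal, so they are lower bounds and a 2-fold difference there could be missed. Pde1b, a phosphodiesterase stimulated by calcium and calmodulin, read 463 with the supernatant and 500 with medium. Pde8b, the paralogue of Pde8a, read 164 and 172 on its brighter probe set. Pde6d, which is named as a subunit of the retinal enzyme and serves as a carrier of prenylated proteins, read 1109 with the supernatant and 1145 with medium. The other 10 genes, among them Pde3a, Pde5a, Pde9a and Pde11a, were under the floor on both arrays.

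Around the phosphodiesterases, 9 lists of genes for the making, sensing and transcriptional reading of cAMP held 72 distinct measured genes, with a median log2 ratio of 0.01 against -0.02 over all measured genes. Of the 72 genes 6 (8.33%) were at least 2-fold higher and 0 lower, against 0.96% and 0.843% of the 11977 measured genes. All 6 belong to the list of cAMP and CREB feedback genes, where 14 were measured and the median was 0.74. They were Nr4a1, an orphan nuclear receptor (7584 with the supernatant and 212 with medium, 35.8-fold), Fosb, an AP-1 subunit (305 and 35.6, at least 7.95-fold), Nfil3, a bZIP repressor (1783 and 382, 4.67-fold), Crem, which holds the repressor ICER (1541 and 451, 3.42-fold), Dusp1, a phosphatase of MAP kinases (10563 and 4153, 2.54-fold), and Sik1, a kinase that restrains CREB coactivators (200 and 96.8, 2.07-fold). Pde4b, at 4.27-fold on its brightest probe set, lay between Nfil3 and Crem. On 1422473_at (3.43-fold) Pde4b was close to Crem, and on 1442700_at (2.22-fold) it lay between Dusp1 and Sik1. Rgs2, a regulator of G protein signalling and also on the list, was bright on both arrays and not called (10904 with the supernatant and 10167 with medium, log2 ratio 0.10). Several of these genes were put on the list with earlier results of these arrays known, so its count is no independent sign of a direction. The 12 genes of this list with an entry, which include Atf1, a gene that no single-gene probe set reads, have 13 start regions. The CRE core was in 10 of these (76.9%), against 20.8% of all start regions, and the full CRE in 1 (7.69%), that of Dusp1, against 1.79%. As the list was made of genes tied to cAMP and CREB, a high share could be foreseen and is no independent result. The core was also at genes that were not called, namely Rgs2, Sik2, Sik3 and Per1. Crem and Sik1 had no entry.

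In the other 8 lists no gene was called in the reported setting, and their medians ran from -0.09 to 0.05. Among the adenylyl cyclases, which make cAMP, 7 of 10 were measured, and Adcy7 read 7093 with the supernatant and 6922 with medium, Adcy9 613 and 609, and Adcy2 610 and 567. Of the proteins through which cAMP acts, the PKA regulatory subunits Prkar1a and Prkar2a had log2 ratios of -0.09 and -0.08, and the catalytic subunit Prkacb -0.17. The PKA inhibitors Pkig and Pkib and the anchoring protein Akap13 had log2 ratios of 0.06, -0.05 and 0.02. Among proteins known to bind phosphodiesterases, Arrb2, the β-arrestin that brings PDE4 to activated receptors, read 8275 with the supernatant and 7338 with medium, and Xiap and Ywhaz had log2 ratios of -0.04 and -0.06. Abcc4, a transporter that exports cAMP, read 2308 with the supernatant and 2385 with medium, Abcc5, which also carries cyclic nucleotides, 577 and 625, and Adk, the adenosine kinase, 4946 and 4513. The G protein subunits Gnas, Gnai2 and Gnai3 had log2 ratios of 0.04, -0.05 and -0.20. On the cGMP side 1 of 9 genes was measured, Prkg1, at 38.7 with the supernatant and 39.5 with medium. The 11 measured housekeeping genes had log2 ratios of -0.12 to 0.05.

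**Figure D3:**
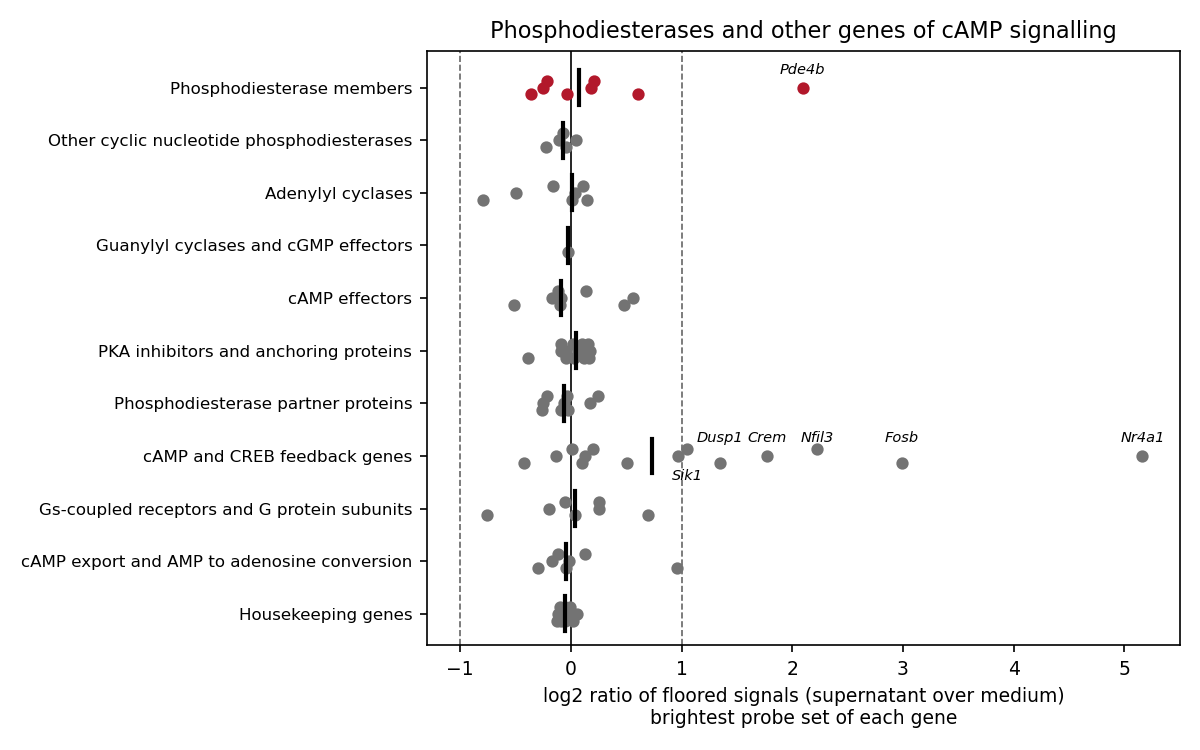
Log2 ratio (supernatant over medium, dim signals at the floor) on the brightest probe set of each measured gene (points) in the phosphodiesterases described here (red), 9 lists of cAMP and cGMP signalling and housekeeping genes (grey), where bars are medians and dashed lines stand at a 2-fold difference. Genes past the lines are named: Pde4b at 2.09 and 6 feedback genes, from Sik1 at 1.05 to Nr4a1 at 5.16.

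By the gene-level log2 ratio, Pde4b was the 1 of the 8 genes that was at least 2-fold different in any of the processing settings tried, and it was so in all of them. Its gene-level log2 ratio was 1.15 to 2.20 in 10 alternatives, and the low end came where 1442700_at represented it or where the log2 signals of all 6 of its probe sets, 3 of them dim, were averaged (1.23, a lower bound).

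**Figure D4:**
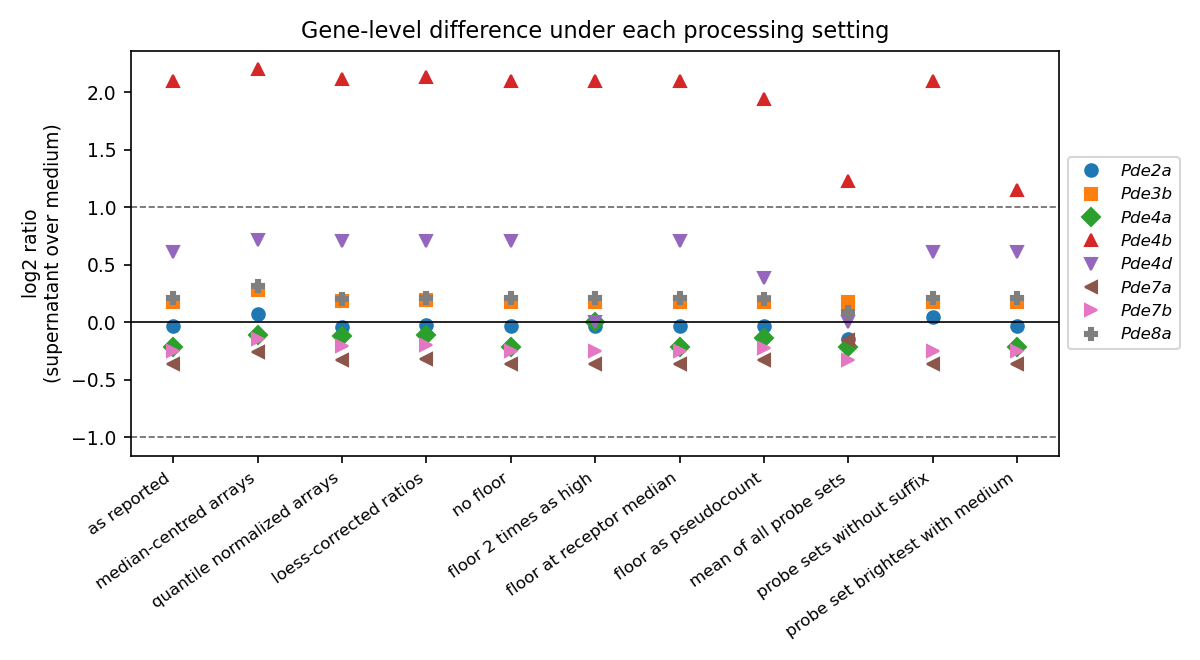
Log2 ratio, supernatant over medium, of each of the 8 genes (symbols) as reported and under 10 other processing settings, with dashed lines at a 2-fold difference. Pde4b lies above the upper line in every setting, lowest at 1.15, and all other genes lie between the lines.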

How the data were processed

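The authors labelled RNA with the GeneChip 3′ IVT Express kit and deposited MAS5 signals, linear intensity values of probe sets with a single scaling factor per array (trimmed mean 500.0 on both). Detection calls and a genome build are not given in the sources used here. Conditions came from the labels, and 1 array was available for each, so no test was run.

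Of 45101 probe sets, 34958 had 1 gene in the platform annotation, 932 several (used for no gene) and 9211 were not listed. All 8 member symbols matched RefSeq (GRCm38.p6) through the Entrez identifier. The floor was the higher of both arrays' 95th percentiles over 80 receptor probe sets, with symbols starting Olfr, Vmn1r, Vmn2r, V1r or V2r. Each gene was read from whichever of its probe sets had the highest mean signal. The log2 ratio is supernatant over medium after flooring.

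The members and gene lists were chosen with earlier results of these data known. Named are all members, list genes called at 2-fold, the 3 brightest measured genes of each cAMP list, and the 4 genes nearest to a called member. The steps were tested on simulated data in which only genes brighter with medium than Pde4b were altered, so recovery for dimmer genes was not tested. Python 3.11.15, numpy 2.4.6, pandas 2.3.3, statsmodels 0.14.6, scipy 1.17.1 and matplotlib 3.10.9 were used. Start regions are those of RefSeq.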

Additional observations from a re-analysis of the deposited data

How the results depend on the processing

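The alternatives were median-centred, quantile normalized or loess-corrected arrays (span 30%), no floor, a floor of 76.8 or of 10.0 (the receptor median), the floor as a pseudocount, and, per gene, all probe sets averaged on the log2 scale, only probe sets whose name lacks _s, _x or _a, or the probe set brightest with medium. The 3 Pde4b probe sets stayed at least 2-fold higher in all 7 settings that apply to probe sets, and Pde4b in all 10, with log2 ratios of 1.15 (the probe set brightest with medium, 1442700_at) to 2.20 (median-centred). With all its probe sets averaged, it was 1.23, a lower bound because that mean lay under the floor with medium. Among the other members' genes and their probe sets measured as reported, none of 188 combinations of value and setting reached 2-fold. The Pde4d log2 ratio was 0 with the floor at 76.8 and 0 with the mean of its probe sets, where both signals were under the floor. Pde2a was at 0.07 when median-centred and 0.04 with only those lacking _s, _x or _a. Median-centring shifts log2 ratios by 0.10 where both signals are above the floor. With the floor at the receptor median, 1 member probe set was called lower (Pde4d, 1459311_at) and 1 more called higher (Pde4b, 1444731_at), both dim. List genes called lower, 0 as reported, were 1 with no floor (Adcy4), 3 with the floor at the receptor median (Adcy4, Adcy1 and Pde3a) and 1 with the mean of all probe sets (Gnas). List genes called higher, 6 as reported, were 8 in each of the median-centred, quantile and loess settings (Per1 and Nt5e added), 7 with no floor (Rapgef3 added), 9 with the floor at the receptor median (Rapgef3, Bves and Pkia added), 5 with the pseudocount (without Sik1) and 4 with the mean of all probe sets (without Crem and Sik1). Of the neutrophil markers, 0 as reported, 3 were called higher with no floor or the receptor-median floor, and 1 when median-centred, quantile normalized, loess-corrected or with the pseudocount. No paired analysis was possible because there is a single array for either condition, and nothing to pair.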

Other observations

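Some genes around cAMP that the rule for naming did not reach came close to 2-fold, and were picked after their values were seen. Nt5e, the ecto-5′-nucleotidase that turns AMP into adenosine, read 141 with the supernatant and 72.4 with medium, 1.95-fold higher, and was called in the median-centred, quantile and loess settings. Of the prostaglandin E2 receptors coupled to Gs, Ptger2 read 826 with the supernatant and 511 with medium (1.62-fold higher), while Ptger4 read 2131 and 3608 (1.69-fold lower). Adcy5, a cyclase, read 41.7 with the supernatant and 72.4 with medium (1.73-fold lower), with its supernatant signal close to the floor. Per1, a clock gene with a CRE core at both of its start regions, read 486 with the supernatant and 249 with medium, 1.95-fold higher.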
